A study of Homo sapiens with 21 samples.

Results

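The genes described here are 9 inflammatory cytokine genes, CSF1, CSF2, CSF3, IL1A, IL1B, IL6, IL11, LIF and TNF, out of 57820 genes counted in 21 RNA-seq libraries of A673 cells, an established Ewing sarcoma line that carries the fusion protein EWS/FLI and, by the study's account, goes on dividing after the fusion is depleted. They were taken by name. CSF2 was on the list because its transcript was strongly repressed where EWS/FLI was present, that is, lower in iLuc than in iEF, so its values against either of those groups are given without a test. The other 8 genes were named without a threshold on their values, but with earlier results of these data known. CSF2 was also already known to stand higher with mut9 than with full-length EWS/FLI, so it is given without a test there too, and in the interaction that contains that difference. Its tests of WT-EF against Δ22 and of DAF against WT-EF use the same WT-EF libraries, so its calls there are no independent support. All 9 genes passed the filter on low counts, which asked for a mean of 1 or more per library, and all 9 would also have passed it without the iEF libraries (lowest mean 2.89 counts, CSF3).

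The study asked which features of the EWS part of the fusion are needed for its transcriptional activity, using knockdown and rescue. All 21 libraries came from cells that received a retroviral shRNA on day 1 and a retrovirus with a hygromycin-resistance vector on day 5, and that stayed under puromycin (2 µg/mL) with hygromycin (400 µg/mL) until day 16. There were 7 groups of 3 libraries, numbered as replicate sets 1, 2 and 3. The iLuc cells carried the control shRNA to luciferase and an empty vector and so kept their own EWS/FLI. The iEF cells carried the shRNA to EWS/FLI and an empty vector, and were the depleted baseline. The 5 rescued groups carried the same EWS/FLI shRNA with a FLAG-tagged cDNA, namely the intact fusion (WT-EF), the fusion stripped of its EWS domain as a negative control (Δ22), the whole fusion with EWS repeat tyrosines replaced by alanine but with a repeat domain left intact (DAF), a form that keeps only both ends of the EWS domain (mut9), and mut9 with its repeat tyrosines replaced as well (DAF-mut9). Every value rests on 1 cell line and on cDNAs driven by a retroviral vector rather than by the fusion's own promoter, and the DAF-mut9 values rest on reading the count columns named mut9d as DAF-mut9. The study's methods speak of replicate knockdown and rescue experiments, but the labels do not say that same-group libraries came from separate cultures, so the p-values measure only the spread between these libraries.

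These cytokines carry signals of inflammation between cells. CSF1, CSF2 and CSF3 are growth factors for macrophages, for granulocytes with macrophages, and for granulocytes, IL-1α, IL-1β and TNF switch on the NF-κB and AP-1 transcription factors in the cells they reach, and IL-6, IL-11 and LIF signal through the shared receptor chain gp130 to JAK kinases and STAT factors. Several of them are themselves classical targets of NF-κB and AP-1, so that a cell exposed to one cytokine often transcribes others. EWS/FLI joins the EWS amino terminus to the ETS DNA-binding domain of FLI1, which recognises a GGAA core and, in Ewing sarcoma, runs of GGAA repeats.

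Promoter sequences were on hand for 6 of the 9 genes, from RefSeq on GRCh38.p14, and not for CSF1, CSF3 and LIF. The 250 bases before the start of transcription were searched on both strands for the κB consensus of NF-κB, for the AP-1 site TGANTCA, for the ETS core ACNGGAA and for the tandem GGAAGGAA, which occur in this window in 9.96%, 6.57%, 13.6% and 3.06% of 35116 promoters. The promoters of IL6, IL11 and IL1A are shown because they held a κB or AP-1 match, and that of CSF2 because CSF2 was the gene chosen for its repression. Each line reads 5′ to 3′ on the gene's own strand and ends at the base before the start, and capitals mark the κB or AP-1 letters.
IL6, chr7:22726950-22727199, plus strand: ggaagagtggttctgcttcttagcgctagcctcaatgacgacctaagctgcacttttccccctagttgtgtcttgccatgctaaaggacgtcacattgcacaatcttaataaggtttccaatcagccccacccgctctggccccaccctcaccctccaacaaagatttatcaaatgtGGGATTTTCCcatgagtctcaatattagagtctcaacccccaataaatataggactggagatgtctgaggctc
IL11, chr19:55370464-55370713, minus strand: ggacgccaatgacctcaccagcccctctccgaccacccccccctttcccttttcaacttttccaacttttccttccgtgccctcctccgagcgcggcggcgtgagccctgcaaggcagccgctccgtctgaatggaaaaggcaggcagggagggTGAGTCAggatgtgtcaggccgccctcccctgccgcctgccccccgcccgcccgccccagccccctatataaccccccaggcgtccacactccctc
IL1A, chr2:112784494-112784743, minus strand, first of its listed starts: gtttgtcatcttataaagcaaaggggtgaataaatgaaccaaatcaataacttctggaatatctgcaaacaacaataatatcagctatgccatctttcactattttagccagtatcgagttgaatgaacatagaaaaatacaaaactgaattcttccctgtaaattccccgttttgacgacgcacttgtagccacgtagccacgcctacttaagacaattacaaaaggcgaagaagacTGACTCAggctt
CSF2, chr5:132073539-132073788, plus strand: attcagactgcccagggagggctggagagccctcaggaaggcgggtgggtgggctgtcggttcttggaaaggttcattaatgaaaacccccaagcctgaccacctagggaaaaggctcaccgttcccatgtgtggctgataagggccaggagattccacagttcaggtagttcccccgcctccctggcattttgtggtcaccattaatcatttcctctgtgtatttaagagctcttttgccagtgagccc
No match to the ETS core as searched, ACNGGAA, was found in any of the 6 genes. GGAA alone was not searched for. In IL6 the κB match lay at -73 to -64 from the start. IL11 held an AP-1 match at -96 to -90 and the tandem GGAAGGAA, on its other strand and left in lower case, at -182 to -175. IL1A held an AP-1 match at -12 to -6 from the start shown. Its other listed start has a window that overlaps this one and is not shown. From that start the same match lay at -105 to -99, and a further AP-1 match lay at -55 to -49. The other motifs also had no match in this window of CSF2, IL1B and TNF, and no matches overlapped. A match is a description of letters, and binding was not measured in these data.

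Library totals ran from 32.9 to 46.2 M counts, so that 1 CPM (1 count in each 1 M of a library's total after TMM adjustment) stood for 32 to 45.2 counts. The targeted gene went in the direction of the labels, as FLI1 was at 70.3 ± 16.2 CPM in iLuc and 20.6 ± 0.553 CPM in iEF (SD, n = 3; log2 fold change 1.75, adjusted p = 1.33e-09). Of 6 markers of Ewing sarcoma cells, 5 were higher in iLuc than in iEF, where 18.7% of all genes were called higher. CD99 was near the floor, with 2 counts over the iEF libraries and 7 over the iLuc libraries. CD99 was not called (log2 fold change 1.49, adjusted p = 0.281), and such counts cannot show whether its level changed. Whether reads of CD99 were lost in mapping or counting was not checked, so these counts do not show that it is hardly transcribed. Transcripts of 12 leukocyte markers were low, with a summed level of 5.67 to 30.7 CPM in iEF, 1.72 to 1.93 in iLuc, 2.6 to 3.32 in WT-EF and 3.18 to 7.18 in the other 4 groups. PTPRC, which marks all leukocytes, had 8 to 38 counts in every library and did not pass the test between iLuc and iEF (log2 fold change -0.48, adjusted p = 0.269), while CD3E, TYROBP and MS4A1 had 2, 3 and 10 counts in all libraries together. CD14, CD163, ITGAM and ITGAX were lower in iLuc than in iEF, by log2 fold changes from -3.93 to -2.87. The upper end of the iEF range came from ITGAM at 25 CPM in iEF replicate 3. Of 4 endothelial markers counted, VWF, KDR and TIE1 were lower in iLuc than in iEF (22.4% of all genes), by log2 fold changes from -8.05 to -3.71. CDH5 gave -1.61 (adjusted p = 0.131). With WT-EF, 2 of the 4 were lower than in iEF (16.9% of all genes). The summed level of the 4 markers was 8.32 to 33 CPM in iEF, 0.597 to 0.977 in iLuc, 7.09 to 14.9 in WT-EF and 18.3 to 47.1 in the other 4 groups. The part of both marker lists in the results below was not tested beyond leaving out that library, and in bulk RNA fewer cells of a kind and less RNA per cell cannot be told apart.

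The cytokine transcripts stood high in depleted cells and very low in cells that kept EWS/FLI. Each of the 8 genes other than CSF2 had every iLuc library below every iEF library, as did 22.7% of all genes tested. CSF2 did too, but it was chosen on this difference and is not counted. By the quasi-likelihood test of edgeR, 8 of the 8 tested genes were lower in iLuc. Its p-values were adjusted (Benjamini-Hochberg) over all 30549 genes tested, of which 22.4% were called lower and 18.7% higher. The median log2 fold change of these 8 genes was -5.92, beside 0.006 over all genes. The count was 8 without iEF replicate 3 and without any other single library.

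**Figure D1:**
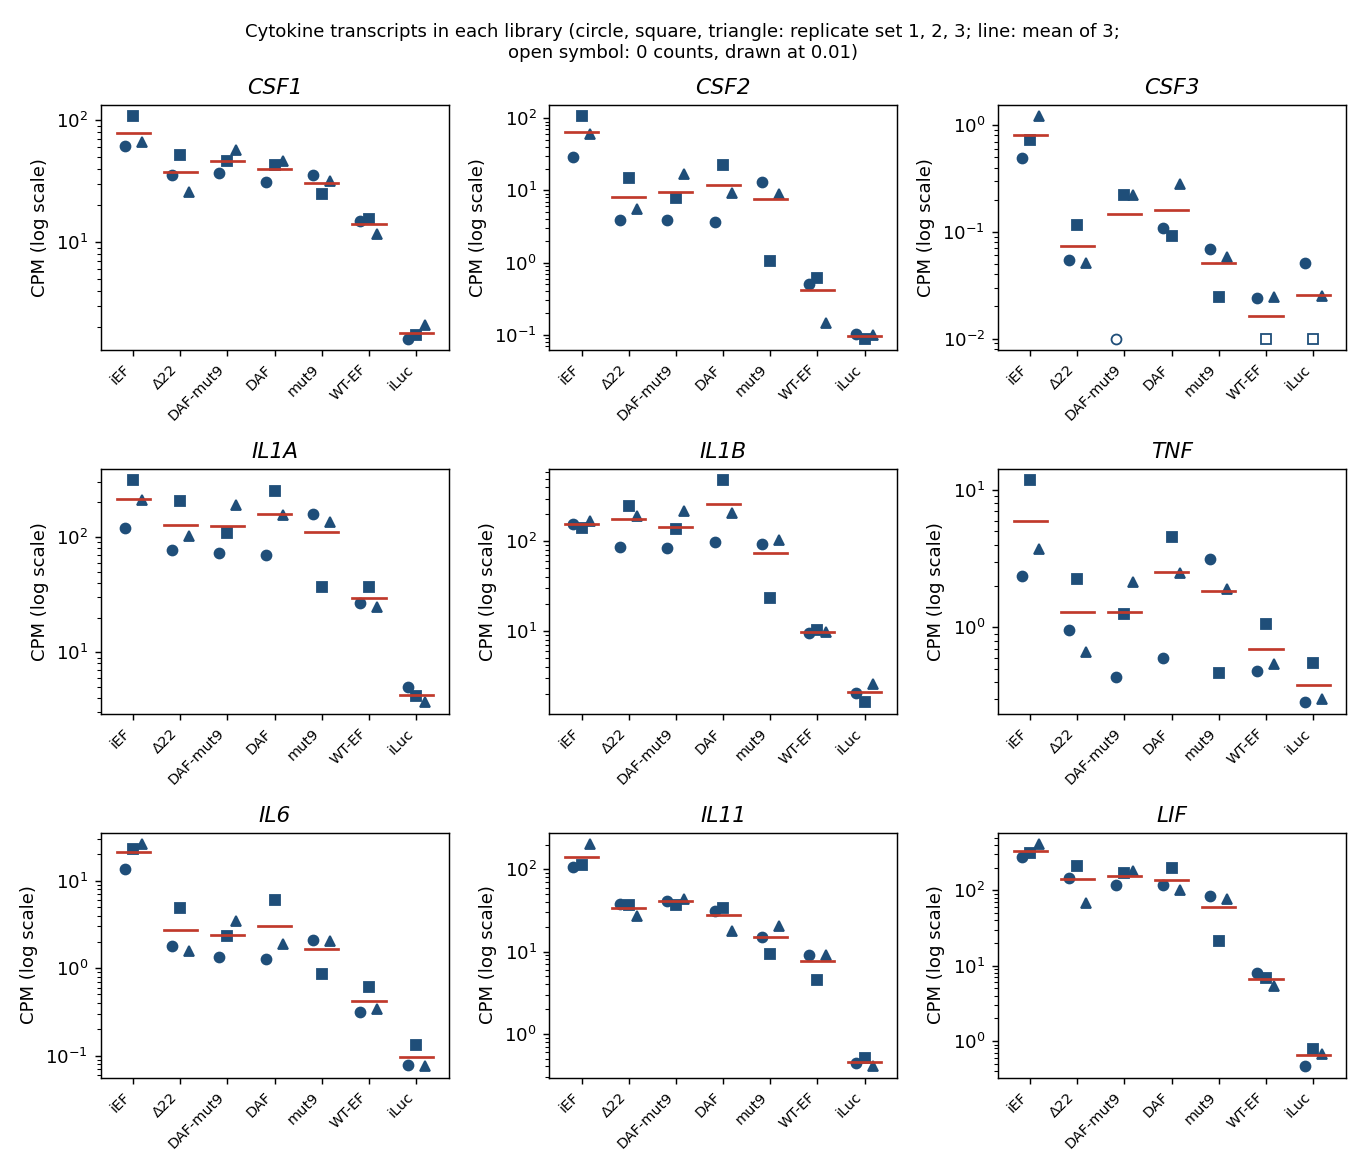
Level of each cytokine transcript in CPM on a log scale in the 21 libraries, with a symbol per replicate set, a line at the mean of 3 libraries and open symbols for libraries with 0 counts. In all 9 panels the iEF libraries lie above the iLuc and WT-EF libraries, and the groups with Δ22, DAF, DAF-mut9 and mut9 lie mostly between them.

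CSF2 encodes GM-CSF (ENSG00000164400; chromosome 5, 131409482 to 131411863, plus strand, GRCh37). Its level was 28.7, 108 and 59.8 CPM in the iEF libraries of replicate sets 1, 2 and 3 and 0.103, 0.0884 and 0.1 CPM in iLuc, which is 4 counts in each iLuc library. With WT-EF it was 0.505, 0.605 and 0.147 CPM. The 3 ranges did not overlap, with iLuc lowest, WT-EF next and iEF highest. The log2 difference from iEF was -9.27 for iLuc and -7.15 for WT-EF, and neither is tested because CSF2 was chosen on it.

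CSF1 encodes the macrophage growth factor M-CSF (ENSG00000184371; chromosome 1, 110452864 to 110473614, plus strand). It stood at 60.8, 108 and 66 CPM in iEF, at 1.62, 1.72 and 2.08 CPM in iLuc and at 15, 15.5 and 11.6 CPM with WT-EF. The ranges were again apart, in the order iLuc, WT-EF, iEF. CSF1 had a log2 fold change from iEF of -5.41 ± 0.28 (SE; adjusted p = 4.23e-12) in iLuc and of -2.45 ± 0.24 (adjusted p = 1.18e-07) with WT-EF. It kept the largest share of its depleted level with WT-EF, 17.9% ± 2.71 (SD, n = 3) of the iEF mean.

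CSF3, which encodes the granulocyte factor G-CSF (ENSG00000108342; chromosome 17, 38171614 to 38174066, plus strand), was the least abundant of the 9. It reached 0.49, 0.72 and 1.22 CPM in iEF, or 89 counts over the 3 libraries, against 3 counts in iLuc and 2 with WT-EF. By pooled counts it was 32.9-fold lower in iLuc (exact 95% interval 10.9 to 163) and 49.2-fold lower with WT-EF (13.2 to 413), and these intervals cover counting error only. The fitted log2 fold changes, -4.83 (adjusted p = 2.06e-05) and -5.35 (adjusted p = 2.52e-05), depend at such counts on the fit's prior count. The iLuc and WT-EF libraries of CSF3 overlapped, each group having 1 library at 0.

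The interleukin-1 genes IL1A (ENSG00000115008; chromosome 2, 113531502 to 113542070, minus strand) and IL1B (ENSG00000125538; chromosome 2, 113587328 to 113594393, minus strand) lie 45.3 kb apart and encode both agonists of the interleukin-1 receptor. IL1A was at 121, 315 and 212 CPM in iEF, at 5.01, 4.13 and 3.66 CPM in iLuc and at 27, 37.1 and 24.9 CPM with WT-EF. IL1B was at 158, 142 and 169 CPM in iEF, at 2.03, 1.59 and 2.56 CPM in iLuc and at 9.37, 10.3 and 9.8 CPM with WT-EF. For both genes the iLuc, WT-EF and iEF libraries formed 3 separate ranges, and IL1B varied little within iEF and within WT-EF. IL1A differed from iEF by -5.57 ± 0.56 (log2, SE; adjusted p = 6.55e-08) in iLuc and by -2.80 ± 0.48 (adjusted p = 0.000136) with WT-EF. IL1B differed by -6.27 ± 0.60 (adjusted p = 2.95e-08) in iLuc and by -4.0 ± 0.52 (adjusted p = 5.07e-06) with WT-EF.

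TNF, the founder of the tumour necrosis factor family (ENSG00000232810; chromosome 6, 31543342 to 31546113, plus strand), varied most among the depleted libraries relative to its mean. It was at 2.36, 11.9 and 3.73 CPM in iEF, at 0.283, 0.553 and 0.301 CPM in iLuc and at 0.48, 1.06 and 0.54 CPM with WT-EF. The iEF libraries were above all of the others here, but the iLuc and WT-EF libraries overlapped. The log2 fold change from iEF was -3.81 ± 0.72 (SE; adjusted p = 0.000188) in iLuc and -2.95 ± 0.67 (adjusted p = 0.0019) with WT-EF. Without iEF replicate 2, the library with the highest TNF, all 8 tested genes were still called in both comparisons.

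Of the 3 genes whose products signal through gp130, IL6 (ENSG00000136244; chromosome 7, 22765503 to 22771621, plus strand) encodes the main inducer of acute-phase proteins, and its exons share bases with IL6-AS1 and STEAP1B on the opposite strand, so that its counts are uncertain to that extent. It was at 13.6, 23.4 and 26.6 CPM in iEF, 0.0771, 0.133 and 0.0752 CPM in iLuc and 0.312, 0.605 and 0.344 CPM with WT-EF. The 3 ranges were apart. IL6 differed from iEF by -7.77 ± 0.62 (log2, SE; adjusted p = 2.32e-09) in iLuc and by -5.66 ± 0.52 (adjusted p = 5.64e-08) with WT-EF.

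IL11 (ENSG00000095752; chromosome 19, 55875750 to 55881831, minus strand) encodes a cytokine of stromal cells and fibrosis. It stood at 108, 113 and 205 CPM in iEF, 0.437, 0.508 and 0.401 CPM in iLuc and 9.15, 4.45 and 9.14 CPM with WT-EF. The iLuc libraries lay close together and far below all others. The log2 fold change from iEF was -8.26 ± 0.41 (SE; adjusted p = 2.53e-12) in iLuc and -4.24 ± 0.32 (adjusted p = 4.47e-09) with WT-EF.

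LIF (ENSG00000128342; chromosome 22, 30636442 to 30642748, minus strand) encodes leukemia inhibitory factor, and shares exonic bases with the antisense genes LIF-AS1 and LIF-AS2, which makes its counts uncertain in the same way. It was at 279, 318 and 417 CPM in iEF, 0.462, 0.796 and 0.676 CPM in iLuc and 8.02, 6.87 and 5.38 CPM with WT-EF. The ranges were far apart. LIF differed from iEF by -9.03 ± 0.59 (log2, SE; adjusted p = 1.02e-10) in iLuc, the largest log2 fold change among the 8 tested genes in this comparison, and by -5.65 ± 0.48 (adjusted p = 1.97e-08) with WT-EF.

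Per kb of exon, the levels in iEF were 107 CPM for IL1A, 87.2 for LIF, 83.3 for CSF2, 53.1 for IL11, 51.9 for IL1B, 14.9 for CSF1, 4.9 for IL6, 3.58 for TNF and 0.364 for CSF3. By these means IL1A, LIF and CSF2 ranked highest and IL6, TNF and CSF3 lowest. The SDs were 48.1 for IL1A, 18.4 for LIF, 51 for CSF2 and 20.5 for IL11 (n = 3), so the order among the upper genes is uncertain. The length used was that of all annotated exons of a gene merged, not of the transcripts made in these cells.

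Full-length EWS/FLI cDNA went with lower levels of the same genes, but for 5 of them the level stayed above that of cells that had kept their own fusion. With WT-EF, 8 of the 8 tested genes were lower than in iEF, where 16.9% of all genes were called lower, and the median over the 8 genes was -4.12 on the log2 scale. Each of these 8 had every WT-EF library below every iEF library, as did 19.9% of all genes. So did CSF2, which is not counted because the iEF libraries were used to choose it. Set directly against iLuc, WT-EF was higher for 5 of the 8 tested genes, where 9.78% of all genes were called higher. These were IL11 (log2 fold change 4.03, adjusted p = 2.49e-07), LIF (3.38, adjusted p = 0.000107), CSF1 (2.96, adjusted p = 8.37e-08), IL1A (2.76, adjusted p = 0.000493) and IL1B (2.27, adjusted p = 0.00486). IL6 differed by 2.10 (adjusted p = 0.063, and 0.0145 by DESeq2), TNF by 0.86 (adjusted p = 0.521) and CSF3 by -0.52 (adjusted p = 0.86). IL6 was also called without DAF replicate 2 (adjusted p = 0.0338), without mut9 replicate 1 (0.0388) and without mut9 replicate 2 (0.0193). FLI1 transcript, in which the cDNA and the cells' own fusion are not told apart, stood at 24.5 ± 2.39 CPM in WT-EF (SD, n = 3), below its 70.3 CPM in iLuc. By the study's account the shRNA targets the 3′UTR of EWS/FLI. Whether the cDNA holds all the exon bases counted for FLI1 was not checked, so these levels may not measure the fusion alike in iLuc and rescued cells. FLI1 in WT-EF was also below the other rescued groups, with 30.7 ± 2.52 CPM in mut9, 36.3 ± 1.49 in DAF-mut9, 37 ± 2.43 in DAF and 49.5 ± 11 in Δ22, and the part of these unequal levels in the comparisons between constructs was not tested.

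**Figure D2:**
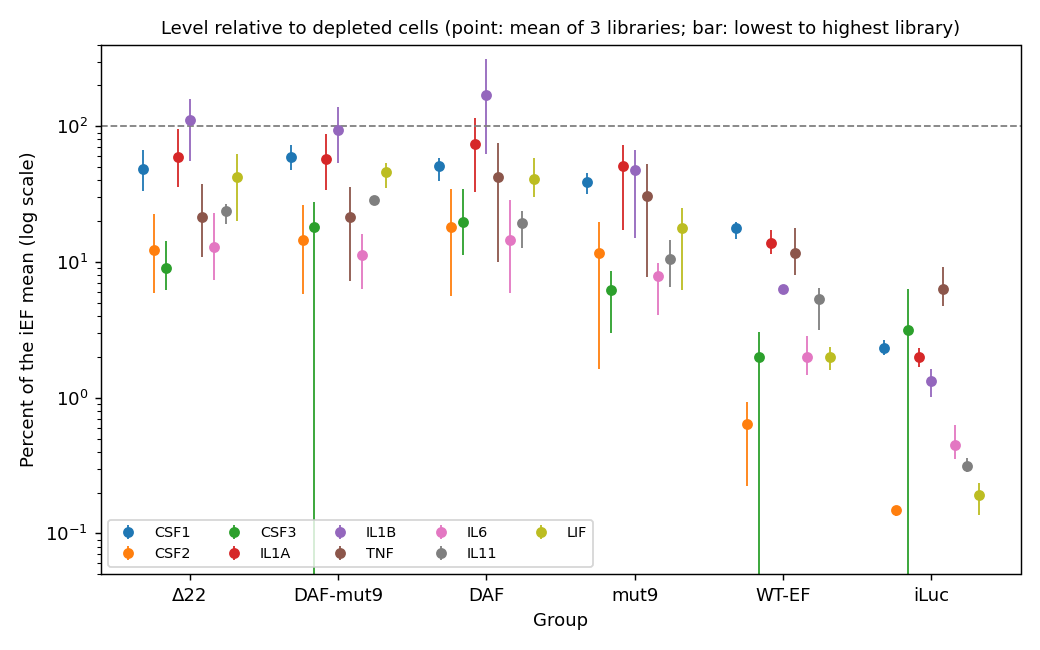
Level of each cytokine transcript as a percentage of the iEF mean on a log scale, with a point at the mean of 3 libraries and a bar from the lowest to the highest library; a bar that runs off the axis reaches a library with 0 counts. The median over the 9 genes is 1.32% in iLuc, 5.34% with WT-EF, 17.9% with mut9, 23.9% with Δ22, 28.6% with DAF-mut9 and 40.9% with DAF.

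The Δ22 construct has no EWS domain and served as the negative control, yet 4 of the 8 tested genes were lower with it than in iEF, where 1.79% of all genes were called lower. These were CSF3 (log2 fold change -3.33, adjusted p = 0.0069), IL6 (-3.01, adjusted p = 0.000834), IL11 (-2.03, adjusted p = 0.000831) and CSF1 (-1.05, adjusted p = 0.0156). IL6 was at 1.78, 4.9 and 1.57 CPM and IL11 at 37.9, 36.9 and 27.1 CPM with Δ22, and for both genes every one of these libraries lay below every iEF library. CSF2 stood at 3.89, 14.8 and 5.55 CPM with Δ22, also below the 3 iEF libraries, a log2 difference of -3.02 that is not tested. TNF (-2.09, adjusted p = 0.0864), LIF (-1.28, adjusted p = 0.0987) and IL1A (-0.75, adjusted p = 0.507) did not pass the test. IL1B gave 0.09 (adjusted p = 0.97), and its Δ22 libraries, at 86.9, 247 and 193 CPM, lay on both sides of the iEF libraries. The count was 2 without Δ22 replicate 3, when CSF1 (-0.82, adjusted p = 0.136) and CSF3 (-2.78, adjusted p = 0.0991) were lost, and it was 7 both without the low-count filter and when only the 6 libraries of the compared groups were fitted. CSF1 was also lost without iEF replicate 2 (-0.80, adjusted p = 0.0783) and without Δ22 replicate 1 (-1.07, adjusted p = 0.0543).

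The tyrosine-substituted full-length form, DAF, gave 5 lower genes of 8 against iEF, where 4.02% of all genes were called lower. IL6 (log2 fold change -2.92, adjusted p = 0.000213), IL11 (-2.31, adjusted p = 3.44e-05) and CSF3 (-2.31, adjusted p = 0.0153) were lower by more than LIF (-1.31, adjusted p = 0.0464) and CSF1 (-0.96, adjusted p = 0.011). IL1A was at 70.5, 250 and 157 CPM and TNF at 0.6, 4.55 and 2.47 CPM, and both overlapped iEF. IL1B was at 97.9, 488 and 205 CPM with DAF, and its log2 fold change, 0.66 ± 0.47 (SE; adjusted p = 0.492), turned to -0.19 without DAF replicate 2, the library at 488 CPM. The count fell to 2 without DAF replicate 1 and to 3 without iEF replicate 2, iEF replicate 3 or DAF replicate 2, and without the low-count filter 7 genes were lower and IL1B was higher. LIF was not called by DESeq2 (adjusted p = 0.0622), with the filterByExpr filter (0.0516) or in 14 of the 21 fits that left out 1 library. CSF1 was lost without iEF replicate 2 (adjusted p = 0.0761), DAF replicate 1 (0.0795) and DAF replicate 2 (0.0551), and CSF3 without iEF replicate 3 (0.0896), DAF replicate 1 (0.062) and DAF replicate 2 (0.0925).

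With mut9, 5 of 8 genes were lower than in iEF, where 8.33% of all genes were called lower. They were CSF3 (log2 fold change -3.83, adjusted p = 0.000387), IL6 (-3.52, adjusted p = 1.1e-05), IL11 (-3.25, adjusted p = 2.03e-07), LIF (-2.46, adjusted p = 0.000233) and CSF1 (-1.30, adjusted p = 0.000398). LIF was at 84.2, 21.2 and 76.4 CPM with mut9 and IL11 at 15.2, 9.35 and 20.6 CPM, all below the iEF libraries. With CSF2 included, 7 of the 9 genes had every mut9 library below every iEF library, and the share of all genes was not computed. IL1B (-1.04, adjusted p = 0.155), TNF (-1.20, adjusted p = 0.247) and IL1A (-0.79, adjusted p = 0.306) did not pass. Without mut9 replicate 1 the calls of IL1B (-1.63, adjusted p = 0.0491) and TNF (-2.45, adjusted p = 0.014) were added, and without the low-count filter all 8 were called.

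With DAF-mut9, 3 of 8 genes were lower than in iEF, where 2.14% of all genes were called lower. They were IL6 (log2 fold change -3.16, adjusted p = 0.000404), CSF3 (-2.46, adjusted p = 0.0208) and IL11 (-1.79, adjusted p = 0.00133). LIF was at 119, 170 and 180 CPM and CSF1 at 37, 45.7 and 56.7 CPM, each below all iEF libraries. LIF (-1.12, adjusted p = 0.141) and CSF1 (-0.73, adjusted p = 0.0858) did not pass the test. With CSF2 included, 7 of the 9 genes had every DAF-mut9 library below every iEF library, and the share of all genes was not computed. The count was 5 without mut9 replicate 2, when LIF (adjusted p = 0.0222) and TNF (0.02) were added, 5 when only the compared groups were fitted and 7 without the low-count filter. CSF3 was lost without iEF replicate 3 (adjusted p = 0.126), DAF-mut9 replicate 1 (0.105) and DAF-mut9 replicate 3 (0.0952). The 6 comparisons with iEF share the same iEF libraries, so their values stand side by side and are not independent of one another.

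**Figure D3:**
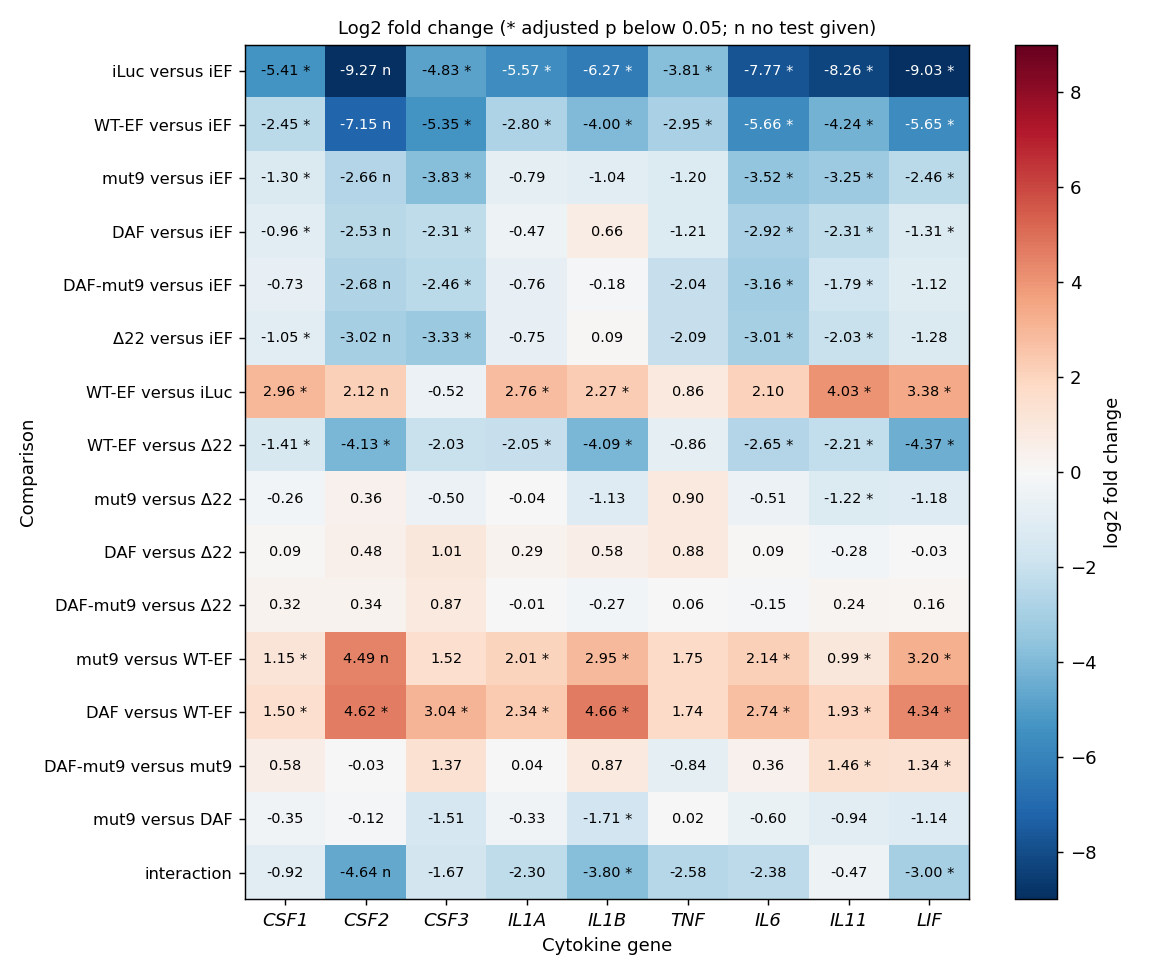
Log2 fold change of each cytokine gene (columns) in each of 16 comparisons (lines), coloured from blue for lower to red for higher; a star marks an adjusted p-value below 0.05 and n marks CSF2 where no test is given. IL6, IL11 and CSF3 carry a star in all 6 comparisons with iEF, and the lines for DAF and DAF-mut9 against Δ22 carry none.

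The constructs were next set against the negative control without the EWS domain. Against Δ22, WT-EF was lower for 7 of the 9 genes, where 14.5% of all genes were called lower. LIF (log2 fold change -4.37 ± 0.45, SE, adjusted p = 3.52e-07), CSF2 (-4.13 ± 0.86, adjusted p = 0.000997) and IL1B (-4.09 ± 0.52, adjusted p = 5.3e-06) were lower by the most, followed by IL6 (-2.65), IL11 (-2.21), IL1A (-2.05) and CSF1 (-1.41). CSF3 (-2.03, adjusted p = 0.198) and TNF (-0.86, adjusted p = 0.418) did not pass. The 7 calls were 7 without any single library. CSF2 is among the 7, and its call is no independent support, since its lower level with WT-EF than with mut9 was known beforehand.

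Against the same control mut9 was lower for IL11 alone of the 9 genes (log2 fold change -1.22 ± 0.29, SE, adjusted p = 0.0076), where 4.64% of all genes were called lower. The mut9 libraries of IL11 were at 15.2, 9.35 and 20.6 CPM and the Δ22 libraries at 37.9, 36.9 and 27.1 CPM, without overlap. LIF (-1.18, adjusted p = 0.0752) and IL1B (-1.13, adjusted p = 0.163) came next. The call of IL11 was lost without Δ22 replicate 2 (-1.04, adjusted p = 0.0545) or mut9 replicate 2 (-0.99, adjusted p = 0.0776). LIF was called without Δ22 replicate 3 (-1.59, adjusted p = 0.0162) or mut9 replicate 1 (-1.58, adjusted p = 0.0489), IL1B without DAF replicate 2 (-1.26, adjusted p = 0.0496), and without the low-count filter 3 genes were called lower and TNF higher.

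When DAF and DAF-mut9 were set against Δ22, edgeR's quasi-likelihood test called 0 of the 9 genes, with 0 of 9 at an unadjusted p below 0.05 and 0 called by DESeq2. The unadjusted count depended on the setting. For DAF it was 4 of 9 with only the compared groups fitted and 4 without the low-count filter, and for DAF-mut9 2 without that filter. Over all genes 0.972% (297 of 30549) were called in either direction for DAF and 0% for DAF-mut9. The log2 fold changes ran from -0.28 (IL11, SE 0.28) to 1.01 (CSF3, SE 0.76) for DAF and from -0.27 (IL1B, SE 0.46) to 0.87 (CSF3, SE 0.76) for DAF-mut9. CSF2, for example, was at 3.66, 22.6 and 9.13 CPM with DAF, at 3.83, 7.85 and 17.1 CPM with DAF-mut9 and at 3.89, 14.8 and 5.55 CPM with Δ22 and the 3 ranges overlapped. The standard errors of these log2 fold changes were between 0.23 (CSF1) and 0.76 (CSF3), so that small differences were not detectable. Without the low-count filter IL1B was called for DAF (0.60, adjusted p = 0.000431), and without DAF replicate 2 its value turned to -0.34.

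The constructs were then set against full-length EWS/FLI. With mut9, 6 of the 8 genes other than CSF2 were higher than with WT-EF, where 4.95% of all genes were called higher. CSF2 was at 13, 1.06 and 8.99 CPM with mut9 against at most 0.605 CPM with WT-EF (log2 difference 4.49, not tested). LIF was higher by 3.20 (adjusted p = 0.000139), IL1B by 2.95 (adjusted p = 0.000951), IL6 by 2.14 (adjusted p = 0.0154), IL1A by 2.01 (adjusted p = 0.0123), CSF1 by 1.15 (adjusted p = 0.00372) and IL11 by 0.99 (adjusted p = 0.048). Of the 8 genes other than CSF2, CSF1, IL1B, IL6, IL11 and LIF had mut9 libraries wholly above the WT-EF libraries, as did 14.8% of all genes. CSF2 did too, which was known when it was taken. The libraries overlapped for IL1A, where mut9 replicate 2 was at 37 CPM and WT-EF replicate 2 at 37.1 CPM. With CSF2 counted as well, the fit gave 7 genes, and 3 without WT-EF replicate 3 or mut9 replicate 1 and 4 without WT-EF replicate 2 or mut9 replicate 3. The calls of LIF and IL1B held in each of these fits, while those of IL6, IL11 and IL1A were lost in all 4, with adjusted p-values from 0.0505 to 0.317, and that of CSF1 was lost without WT-EF replicate 3 (0.0515) and mut9 replicate 1 (0.0621). IL6 was also lost without WT-EF replicate 1 (0.0528), and IL11 in 12 of the 21 fits that left out 1 library, with RLE normalization (0.0591) and with the filterByExpr filter (0.0573).

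With DAF, 8 of the 9 genes were higher than with WT-EF, where 14.3% of all genes were called higher, and TNF was the exception (log2 fold change 1.74, adjusted p = 0.0647). IL1B (4.66 ± 0.54, SE, adjusted p = 1.77e-06), CSF2 (4.62 ± 0.86, adjusted p = 0.000375) and LIF (4.34 ± 0.45, adjusted p = 4.96e-07) were higher by the most. The call of CSF2, counted among the 8, is again no independent support, because it rests on the same WT-EF libraries. IL1B stood at 97.9, 488 and 205 CPM with DAF and at 9.37, 10.3 and 9.8 CPM with WT-EF. The call of CSF3 (3.04, adjusted p = 0.0272), which rests on 16 counts in DAF and 2 in WT-EF, was lost without WT-EF replicate 2 (adjusted p = 0.113), WT-EF replicate 3 (0.102), DAF replicate 1 (0.0554) or DAF replicate 3 (0.122). TNF was called in 5 of the 21 fits that left out 1 library.

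Between the mutant forms few of the cytokine genes were called. DAF-mut9 was higher than mut9 for 2 of the 9 genes, IL11 (log2 fold change 1.46 ± 0.29, SE, adjusted p = 0.00164) and LIF (1.34 ± 0.40, adjusted p = 0.0351), where 5.15% of all genes were called higher. IL11 was at 41.3, 37 and 43.5 CPM with DAF-mut9 and LIF at 119, 170 and 180 CPM, above every mut9 library in both cases. The call of LIF was lost without mut9 replicate 2 (0.84, adjusted p = 0.139), DAF-mut9 replicate 2 (1.33, adjusted p = 0.0896) or DAF-mut9 replicate 3 (1.14, adjusted p = 0.168). Fitting only these groups gave 4 calls, and dropping the low-count filter gave 4 genes higher and TNF lower.

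mut9 was lower than DAF for 1 of the 9 genes, IL1B (log2 fold change -1.71 ± 0.49, SE, adjusted p = 0.0381), where 3.48% of all genes were called lower. Its mut9 libraries, at 93.9, 23.6 and 105 CPM, overlapped the DAF libraries. The call was lost when only the 2 groups were fitted (-1.65, adjusted p = 0.25) and without DAF replicate 2 (-0.92, adjusted p = 0.316), mut9 replicate 2 (-1.11, adjusted p = 0.192), mut9 replicate 3 (-1.88, adjusted p = 0.0734), WT-EF replicate 1 (-1.68, adjusted p = 0.0528), WT-EF replicate 2 (-1.70, adjusted p = 0.0518) or DAF-mut9 replicate 2 (-1.69, adjusted p = 0.0516). IL11 gave -0.94 (adjusted p = 0.0551) and was called by DESeq2 (adjusted p = 0.0223), with filterByExpr (0.0452) and in 6 of the 21 fits that left out 1 library.

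Whether replacing tyrosines had the same effect in the short and the full-length form was tested as an interaction, (DAF-mut9 minus mut9) minus (DAF minus WT-EF), although the tyrosines replaced in DAF and in DAF-mut9 are not the same set. The value was below 0 for all 9 genes and passed for 2 of the 8 other than CSF2, where 2.82% of all genes were called lower. These were IL1B (-3.80 ± 0.67, SE, adjusted p = 0.00226) and LIF (-3.00 ± 0.57, adjusted p = 0.00401). For CSF2, at -4.64 and not tested, the tyrosine change went with 0.419 ± 0.24 CPM in WT-EF against 11.8 ± 9.75 in DAF, and with 7.67 ± 6.07 CPM in mut9 against 9.58 ± 6.78 in DAF-mut9 (SD, n = 3). IL1A (-2.30, adjusted p = 0.0554) and IL6 (-2.38, adjusted p = 0.0593) did not pass. With CSF2 counted as well, the fit gave 3 genes, and 7 without mut9 replicate 2, 5 without DAF replicate 1 or DAF-mut9 replicate 3, and 7 without the low-count filter.

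Ordered by mean level, iEF stood first for 8 of the 9 genes and iLuc last for 8. The exceptions were IL1B, where DAF at 264 ± 202 CPM and Δ22 at 176 ± 81.6 CPM stood before iEF at 156 ± 13.7 CPM with overlapping libraries, and CSF3, where WT-EF at 0.0162 ± 0.014 CPM stood below iLuc at 0.0255 ± 0.0257 CPM (SD, n = 3). DAF, DAF-mut9, Δ22 and mut9 filled the middle for most genes, and neighbours among these 4 overlapped in every case except mut9 and DAF for LIF, whose mut9 libraries (at most 84.2 CPM) lay below its DAF libraries (at least 102 CPM). For TNF all 6 neighbouring pairs overlapped. WT-EF came second to last or last for every gene, and its libraries lay wholly below those of Δ22 for 8 genes (21.1% of all genes), of DAF for 8 (20.9%), of DAF-mut9 for 7 (22.5%) and of mut9 for 6 (14.8%). Each of these counts includes CSF2, whose lower level with WT-EF than with mut9 was known when it was taken.

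The cytokine genes also varied together from library to library within a group. Over the 21 libraries, with each group's mean removed, 36 pairs of genes gave Pearson correlations of log2 CPM from -0.02 to 0.96 with a median of 0.64, and 21 pairs were above 0.5. These are descriptions across libraries that share depth, scaling and handling, and no test is given. Neither these correlations nor the counts of extreme libraries below were computed for other genes. Whether the pattern is particular to the cytokine genes was not tested. The closest pairs were CSF2 with IL1A (r = 0.96), IL1A with TNF (r = 0.92) and CSF2 with TNF (r = 0.89), whereas IL11 followed the others least, with r = -0.02 for CSF1 and 0.1 for TNF. Single libraries stood out in the same way for most genes. mut9 replicate 2 was the lowest of its group for 9 of 9 genes, DAF-mut9 replicate 3 the highest for 9, Δ22 replicate 2 the highest for 8, DAF replicate 2 the highest for 7 and iEF replicate 1 the lowest for 8. In iLuc no library was highest or lowest for more than 4 genes.

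**Figure D4:**
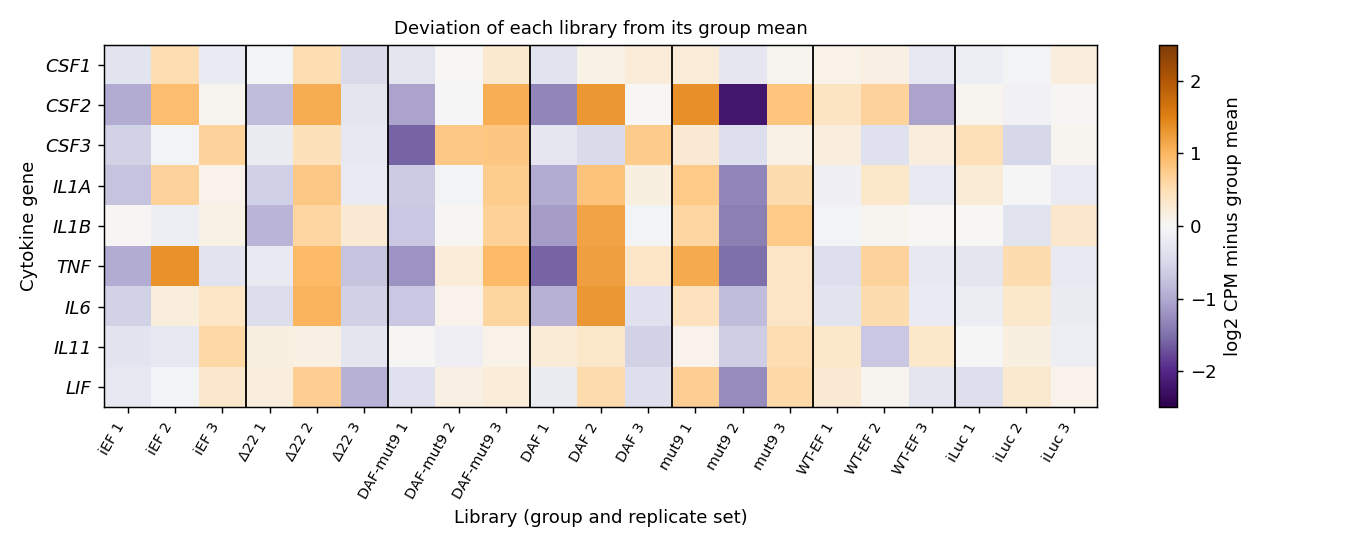
Deviation of each library from the mean of its group, in log2 CPM, for the 9 cytokine genes (lines) over the 21 libraries (columns, parted by group), orange above and purple below the group mean. The column of mut9 replicate 2 is purple and that of DAF-mut9 replicate 3 orange for every gene.

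The wider cytokine network was described through 6 lists of genes, and in each list more genes were lower than higher in cells that kept EWS/FLI. Over all genes 22.4% were called lower and 18.7% higher in iLuc than in iEF. In iLuc against iEF, 13 of 19 tested other cytokines of the same families were lower and 1 was higher (median log2 fold change -3.94). TNFSF15, a T-cell costimulator of the TNF family, was lower by -8.45 ± 0.44 (SE; adjusted p = 4.16e-12), TNFSF10, the death ligand TRAIL, by -7.32 ± 0.88 (adjusted p = 7.78e-07) and IL36B, of the interleukin-1 family, by -7.18 ± 0.87 (adjusted p = 8.39e-07). TNFSF13B, the B-cell survival factor BAFF, was higher (0.87, adjusted p = 0.0165). Against iEF, 11 of the 19 were lower with WT-EF and none was higher, beside 16.9% of all genes called lower, 9 were lower with mut9 (8.33% of all genes), 2 with Δ22 (1.79%), 2 with DAF-mut9 (2.14%) and 0 with DAF (4.02%).

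Of the ligands' receptors, 12 of 13 were tested, with 7 lower and 4 higher in iLuc than in iEF (median -1.33). The shares over all genes were 22.4% lower and 18.7% higher. IL1R1, the signalling receptor of both interleukin-1 forms, went from 35.2 ± 12.2 CPM in iEF to 0.268 ± 0.184 CPM in iLuc (SD, n = 3; log2 fold change -7.02, adjusted p = 3.76e-13). TNFRSF1B, a TNF receptor, was lower by -5.94 (adjusted p = 7.48e-10) and IL6R by -3.00 (adjusted p = 8.9e-10). IL1RAP, the partner chain of IL1R1, was higher, with 93.5 ± 17.9 CPM in iEF and 464 ± 73.7 CPM in iLuc (log2 fold change 2.30, adjusted p = 2.29e-11), and IL11RA was higher by 0.64 (adjusted p = 0.0487). The 2 chains of the interleukin-1 receptor thus moved in opposite directions.

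Decoys and inhibitors of these pathways were lower for 9 of 10 genes (22.4% of all genes) and higher for none (18.7%), with a median of -3.07. TNFAIP3, which ends NF-κB signalling and is an NF-κB target itself, fell from 317 ± 149 CPM in iEF to 4.4 ± 1.72 CPM in iLuc (SD, n = 3; log2 fold change -6.14, adjusted p = 7.3e-10). SOCS3 (-3.50, adjusted p = 2.76e-10) and SOCS1 (-3.23, adjusted p = 1.44e-07), feedback inhibitors of JAK signalling, were lower too. Of the 10, 8 were lower than in iEF with WT-EF (16.9% of all genes), 3 with Δ22 (1.79%), 4 with mut9 (8.33%), 2 with DAF-mut9 (2.14%) and 3 with DAF (4.02%).

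Of 19 transcription factors of the NF-κB, AP-1, C/EBP, STAT and EGR kind, 13 were lower and 1 higher in iLuc (median -1.37). For this and the following lists, 22.4% of all genes were called lower and 18.7% higher. STAT5A (-4.51, adjusted p = 5.93e-09), CEBPD (-4.43, adjusted p = 5.57e-08) and FOSL1, an AP-1 subunit (-4.34, adjusted p = 3.02e-13), were lower by the most, and CEBPB was higher (0.98, adjusted p = 0.00787). Signal transducers moved less, with 8 of 13 tested genes lower and 1 higher (median -0.68). MYD88, the adaptor of the interleukin-1 receptor (-1.47, adjusted p = 3.51e-05), RIPK1 (-1.22, adjusted p = 2.72e-07) and IKBKB, the IκB kinase subunit (-0.99, adjusted p = 2.03e-07), were lower, and JAK1 was higher (0.76, adjusted p = 1.67e-06). Of 5 proteases that process these cytokines or their receptors, 4 were lower (median -1.02), with ADAM10 at -1.41 (adjusted p = 6.64e-09), CAPN2 at -1.33 (adjusted p = 3.69e-08) and CAPN1 at -1.02 (adjusted p = 1.31e-05).

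**Figure D5:**
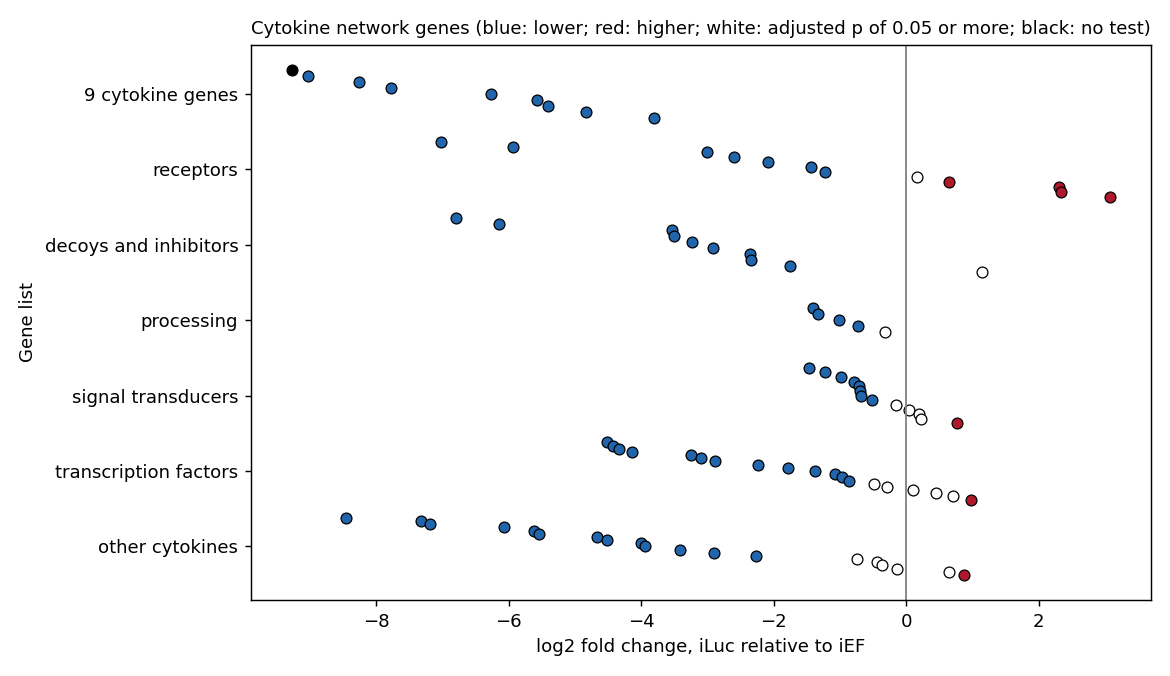
Log2 fold change of iLuc relative to iEF for the 9 cytokine genes and the tested genes of 6 network lists, a point per gene, blue for lower and red for higher at an adjusted p-value below 0.05, white otherwise and black for CSF2 without a test. The cytokine genes lie between -9.27 and -3.81, while the signal transducers lie between -1.47 and 0.76.

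The genes whose log2 CPM followed each cytokine gene most closely over the 21 libraries were sought among about 10778 genes with a mean of at least 5 CPM, as a description with no test. Group means were not removed here, so differences between groups enter each r. For CSF2 these include the difference between iLuc and iEF on which it was chosen. CSF2 was followed by BIRC3 (r = 0.985), TRAF1 (0.983) and TNFAIP2 (0.982), and IL6 by BIRC3 (0.976), C1QTNF1 (0.97) and ZC3H12A (0.967). IL1A was followed by ICAM1 (0.98), RIGI (0.975) and IRAK2 (0.972), and IL1B by ZNFX1 (0.984), MYO9B (0.982) and RHBDF2 (0.98). TNF, the noisiest, was followed by TIFA (0.924), CCL20 (0.921) and C1QTNF1 (0.911). IL11 was closest to RUNX1 (0.986), ISM1 (0.982) and LOX (0.981), CSF1 to LOXL2 (0.991), MLPH (0.983) and LSP1 (0.982), and LIF to COL6A2 (0.993), SLC41A2 (0.992) and CXCL8 (0.989). Only BIRC3 and C1QTNF1 appeared for more than 1 cytokine gene. CSF3, below 1 CPM on average, was not searched.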

How the data were processed

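RNA from A673 cells was made into ScriptSeq libraries and sequenced as paired ends. The authors mapped reads with STAR (hg19), counted them with htseq-count (intersection-strict) and deposited a raw count for each Ensembl gene. Which annotation and strand option they used is not given in the sources used here. The authors also deposited values adjusted for replicate set with ComBat, a signal not scaled for library size, which holds 3 of the 9 genes and was used only as an alternative. The authors' table of log2 fold changes, standard errors and adjusted p-values was not used. The htseq-count summary lines were empty.

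The tests used edgeR 4.0.16 under R 4.3.3. The filter kept 30549 of 57820 genes, those averaging 1 or more counts a library. After TMM scaling, 1 quasi-likelihood fit to all 21 libraries held group and replicate set, since the authors had adjusted for the latter. A gene was called when its p-value, adjusted by Benjamini-Hochberg over all genes tested, was below 0.05, in 16 comparisons. Fold changes are log2 with standard errors from the fit, and CPM values are given as mean ± SD of 3 libraries. The scripts were tested on simulated counts. The alternatives were DESeq2 1.42.0, RLE normalization, filterByExpr or no filter on low counts, no replicate block, the compared groups only, the ComBat values and each library left out.

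The 9 genes, the network lists and the marker lists were chosen with earlier results of these data known. Every listed gene was counted. The result of 1 of them is not reported here. Named were, in each network list, up to 3 genes each way with the largest log2 fold change between iLuc and iEF among those called with a mean of at least 1 CPM. Genes with a like pattern were the 3 with the highest Pearson correlation of log2 CPM (prior count 2) among genes with a mean of at least 5 CPM. Gene positions are from GENCODE release 44 lifted to GRCh37, where 55538 of the genes had a symbol; IKBKG and PECAM1 were not matched. Promoters are on GRCh38.p14, and positions were not converted between builds. Intervals of pooled counts are exact at 95% and cover counting error only. The share of all genes without overlap was computed only for iLuc against iEF and for WT-EF against iEF and each other construct.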

Additional observations from a re-analysis of the deposited data

Results flagged for a closer look

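The effect of tyrosine substitution differed between the shortened and the full-length form by the interaction term of edgeR's quasi-likelihood test, with log2 differences of -3.80 for IL1B (adjusted p = 0.00226) and -3.00 for LIF (adjusted p = 0.00401). CSF2 gave -4.64, which is no independent evidence because its difference between mut9 and WT-EF was known when the gene was taken. For IL1B the means were 9.82 CPM in WT-EF and 264 CPM in DAF, against 74.2 CPM in mut9 and 146 CPM in DAF-mut9. For LIF they were 6.76 and 138 CPM, against 60.6 and 157 CPM. All 3 differences rest on WT-EF as the only one of these 4 groups with low levels. No outlier test was run, since every group had 3 libraries.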

How the results depend on the processing

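The count of cytokine genes called in either direction, CSF2 included outside the comparisons with iEF and iLuc, was the same or within 1.5 times in 80 of 95 fits with another setting, and the low-count filter moved it most often. Without that filter the counts were 8 (mut9), 8 (DAF), 7 (DAF-mut9) and 7 (Δ22) against iEF, 4 for mut9 and 1 for DAF against Δ22, 5 for DAF-mut9 against mut9, 3 for mut9 against DAF and 7 for the interaction. With the compared groups only they were 5 for DAF-mut9 and 7 for Δ22 against iEF, 4 for DAF-mut9 against mut9 and 0 for mut9 against DAF, where DESeq2 and filterByExpr each gave 2. The causes were not tested. The interaction was not fitted with the compared groups only, and the ComBat values gave no counts; with them CSF1 was not called in DAF against iEF (-0.90, adjusted p = 0.109), Δ22 against iEF (-0.98, adjusted p = 0.138) or mut9 against WT-EF (1.03, adjusted p = 0.0684).

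Leaving out 1 library at a time gave 8 to 8 calls for iLuc and for WT-EF against iEF, and against the same cells mut9 gave 5 to 7, DAF 2 to 5, DAF-mut9 2 to 5 and Δ22 2 to 6. It gave 5 to 6 for WT-EF against iLuc, 7 to 7 for WT-EF, 0 to 2 for mut9 and 0 to 0 for DAF and DAF-mut9 against Δ22, 3 to 8 for mut9 and 7 to 9 for DAF against WT-EF, 1 to 2 for DAF-mut9 against mut9, 0 to 2 for mut9 against DAF and 2 to 7 for the interaction. Values that passed no test in the full data turned sign for IL1B without DAF replicate 2 (DAF against iEF -0.19, in a range of -0.19 to 1.09, and against Δ22 -0.34, range -0.34 to 0.97) and for TNF without mut9 replicate 1 (mut9 against Δ22 -0.40, range -0.40 to 1.65, and DAF-mut9 against mut9 0.37, range -1.68 to 0.37). Of 40 further values called under no setting, the sign turned in 83 of 1090 fits, the largest of them at 0.60 on the log2 scale.

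Libraries with the same number deviated together weakly from their group means, with correlations from -0.13 to 0.54 and a median of 0.16 over 63 pairs. The 126 pairs with other numbers gave -0.48 to 0.29 with a median of -0.09. Same-number pairs thus leaned weakly above the others, and whether the numbers pair the libraries was not tested. The block was kept because the authors adjusted for replicate set. With no replicate block the counts were 4 in place of 5 for DAF against iEF, where LIF was lost (-1.29, adjusted p = 0.0518), and 5 in place of 7 for mut9 against WT-EF, where IL6 (1.98, adjusted p = 0.0597) and IL11 (0.99, adjusted p = 0.0642) were lost. The other 14 counts were the same without the block. Depth limits CSF3 most, with 2 to 16 counts per group outside iEF.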

Other observations

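The ComBat-adjusted table used here held CSF1, IL1A and TNF and did not hold the other 6 cytokine genes (66.7% of 9). Of the 30549 genes tested, 14.3% were not in it, and of the 10779 genes with a mean of at least 5 CPM 1.39%. By a division chosen after seeing the data, 83 of 116 such genes (71.6%) whose iEF level exceeded that of iLuc by at least 6 on the log2 scale were not in the table, beside 1 of 9642 (0.0104%) with a difference under 2. The cause was not tested. A comparison made from that table would leave out CSF2, IL1B, IL6, IL11, LIF and CSF3.

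Relatives of these cytokines near them on the chromosome were read as values (GRCh37). IL36G and IL36B, which encode other agonists of the interleukin-1 family, lie 136 kb and 185 kb from IL1B and were lower in iLuc than in iEF by log2 fold changes of -6.07 (adjusted p = 6.3e-05) and -7.18 (adjusted p = 8.39e-07), with 1.32 ± 0.691 and 5.7 ± 4.82 CPM in iEF (SD, n = 3). LTA and LTB flank TNF at 1.24 kb and 2.19 kb and were lower by -4.0 (adjusted p = 0.00255) and -3.42 (adjusted p = 0.00044), from low levels of 0.182 ± 0.104 and 1.71 ± 1.4 CPM in iEF. OSM, a gp130 ligand 16.1 kb from LIF, was lower by -2.90 (adjusted p = 0.0228) at 0.14 ± 0.0768 CPM in iEF. IL3, 10.6 kb from CSF2, was below the filter of a mean of 1 count. Except for IL36B, these genes were picked for their position and not by the rule for named genes.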
